A study of Mus musculus with 6 samples.

Results

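The heat shock proteins and chaperones were described here in mouse renal cortex 24 h after ischemia and reperfusion. Genes were chosen by symbol: HSP90, HSP70 and HSP110, small heat shock proteins (HSPB), the mitochondrial chaperonin, the cytosolic chaperonin CCT, J-domain proteins (DNAJ) and BAG cochaperones. Of 22040 genes listed, 87 had such a symbol. RNA-seq compared 3 libraries labelled IR24h, from C57BL/6 mice with both renal pedicles clamped for 30 min and 24 h of reperfusion, with 3 sham libraries from mice of the same strain. All 6 titles carry the word WT. The sham operation, the age and sex of the mice, the time of the sham harvest and whether each library came from its own mouse were not stated by the labels, so p-values measure the spread between these libraries, which may be technical.

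Chaperones help other proteins to fold, keep unfolded chains from clumping and pass those that cannot be folded to degradation. HSP70 proteins bind and release short stretches of a client in a cycle driven by ATP, which J-domain proteins start and nucleotide exchange factors such as BAG proteins and HSP110 end. HSP90 acts late, on nearly folded kinases and receptors, CCT encloses actin and tubulin, and small heat shock proteins hold unfolded clients without ATP. In most cells, heat, oxidants or loss of ATP release the transcription factor HSF1, which binds repeats of nGAAn in the promoters of inducible members. A separate response to unfolded protein in the endoplasmic reticulum (ER) acts through ER stress elements.

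Some of these control elements can be read in the promoters of members described below. RefSeq promoter windows (GRCm38.p6, 250 bases before to 50 after the start) were matched by symbol for 71 of the 87 genes. The sequences shown are the 250 bases before the start for 2 members called higher after injury that hold a head-to-head pair of heat shock units, GAANNTTC, for 1 member called higher and 1 not called that hold the ER stress element (CCAAT and CCACG with 9 bases between them), and for 1 not called member with a heat shock element of 3 units (GAA, TTC and GAA with 2 bases between each, or its reverse complement). Each is written 5′ to 3′ on the strand of its gene, and capitals mark the named element on either strand.

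Hspb1 (chr5:135887669-135887918, plus strand): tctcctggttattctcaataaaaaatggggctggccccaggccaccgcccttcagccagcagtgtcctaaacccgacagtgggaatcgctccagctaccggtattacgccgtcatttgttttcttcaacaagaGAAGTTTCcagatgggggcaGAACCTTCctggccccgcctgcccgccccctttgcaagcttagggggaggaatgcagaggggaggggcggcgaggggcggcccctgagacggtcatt
Hspa1b (chr17:34959239-34959488, minus strand): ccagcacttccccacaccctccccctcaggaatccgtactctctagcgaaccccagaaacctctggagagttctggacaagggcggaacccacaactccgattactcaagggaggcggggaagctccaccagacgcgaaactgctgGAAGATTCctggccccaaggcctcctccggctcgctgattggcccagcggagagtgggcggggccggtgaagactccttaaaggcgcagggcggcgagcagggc
Hsp90b1 (chr10:86705445-86705694, minus strand): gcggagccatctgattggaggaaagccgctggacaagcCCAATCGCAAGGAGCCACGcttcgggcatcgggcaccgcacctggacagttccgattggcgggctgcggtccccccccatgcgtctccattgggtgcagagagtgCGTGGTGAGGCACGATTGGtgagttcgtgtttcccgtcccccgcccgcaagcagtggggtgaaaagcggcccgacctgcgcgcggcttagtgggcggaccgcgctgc
Hspa5 (chr2:34771840-34772089, plus strand): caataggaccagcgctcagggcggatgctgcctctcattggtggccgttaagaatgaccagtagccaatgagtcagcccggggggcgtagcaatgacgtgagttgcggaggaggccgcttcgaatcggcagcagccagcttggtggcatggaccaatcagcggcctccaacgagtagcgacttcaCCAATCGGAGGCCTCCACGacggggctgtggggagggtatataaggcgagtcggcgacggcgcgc
Hspd1 (chr1:55087933-55088182, minus strand): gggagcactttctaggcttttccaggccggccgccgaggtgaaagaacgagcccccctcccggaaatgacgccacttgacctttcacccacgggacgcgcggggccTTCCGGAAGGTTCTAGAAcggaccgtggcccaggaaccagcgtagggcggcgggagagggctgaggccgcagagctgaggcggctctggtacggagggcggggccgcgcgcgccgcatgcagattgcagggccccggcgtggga

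On both strands, the pair GAANNTTC, which equals its own reverse complement, occurred in 17 of the 71 members and in 9.04% of all 27025 genes with a window. The 3-unit form, which contains that pair and also the tail-to-tail pair TTCNNGAA, occurred in 4 of the 71 members (Dnajb6, Hspd1, Hspe1 and Hsph1) and in 0.662% of all genes. The ER stress element, which contains a CCAAT box, was found in 3 members (Hsp90b1, Hspa5 and Dnajc3) and in 0.137% of all genes. The tail-to-tail pair was found in 7 members and 9.6% of all genes, and the CCAAT box in 29 members and 41.1% of all genes. Hspb1 held 2 heat shock pairs, starting 117 and 97 bases before the start. Hspa1b held 1 at 104 bases before the start, and Hspa1a held it at the same place. Hsp90b1 held 2 ER stress elements, 212 and 107 bases before the start. Bag3, also called higher, had its heat shock pair 43 bases after the start. Of the other called members, Dnajc17, Dnajc9, Hspa2, Dnajc28 and Dnajc6 held none of the heat shock or ER stress elements in their windows, and Dnajc12 and Dnajc30 had no window. These are matches of letters in a window of fixed length. Hspd1 held 2 overlapping 3-unit elements, and the window of its neighbour Hspe1 holds the same bases on the other strand.

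Libraries held 12877237 to 15998975 counts in IR24h and 14339985 to 17061844 in sham. Genes of the mitochondrial genome took 26.2 to 68.9% of the counts in IR24h and 13.1 to 14.2% in sham, so that IR24h 1 had 4008001 counts from all other genes. The cortex label was checked against markers: the summed CPM (counts relative to the scaled library size) of 12 proximal tubule genes was 9023 to 15880 in IR24h and 25570 to 30300 in sham, with 8 called lower, and none of them was at 0 in any library. Kap, the highest of these 12 in every library, was not called. It had 10826, 5080 and 13814 CPM in IR24h and 8809, 9883 and 13142 CPM in sham, so it weighs most in the sums. The median log2 fold change of the 12 was −2.61. The sum of 8 distal tubule markers was 3508, 2442 and 5346 CPM in IR24h and 3682 to 4369 CPM in sham, with 3 called lower. Of 10 tubular injury markers, 9 were called higher. IR24h 2 stood apart from IR24h 1 and 3, with which it correlated at r = 0.823 and 0.836 across genes, while those libraries correlated at 0.916 with each other. With sham 1, 2 and 3, IR24h 2 correlated at 0.859, 0.857 and 0.848, higher than with the other injured libraries. IR24h 1 and 3 correlated with the sham libraries at 0.747 to 0.796. Genes are not independent replicates, so these r are descriptions. The gene length behind the authors' FPKM values (fragments relative to gene length and library size) differed between the groups for 13 of 79 members that could be compared and for 13.1% of all genes, so for these genes the values of the groups rest on unlike gene lengths.

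Of the 87 genes, 78 passed the expression filter. The threshold for a call was an adjusted p below 0.05 (edgeR quasi-likelihood test, Benjamini-Hochberg adjustment over 13609 genes). In IR24h, 11 members (14.1%) were called, against 16.3% of all genes tested. They were 6 higher (7.69%) and 5 lower (6.41%) members, against 8.65% of all genes called higher and 7.62% called lower. In this fit the shares of called chaperones were near those of genes in general. Other settings moved these shares: scaling by library size alone gave 3.85% of members against 7.41% of all genes. Leaving out IR24h 3 gave 6.33% against 11.3%. DESeq2 called 24.1% of members and 17.0% of all genes, but over 87 members and 21957 genes without the expression filter. Of those, 78 members and 13609 genes passed the filter, and 82 members and 17245 genes had any count. Both DESeq2 shares thus take in genes that could not be called. They compare neither with the other shares nor with each other. The median log2 fold change was 0.22 over members and 0.05 over all genes tested. The higher genes were Hspb1, Dnajc17, Hspa1b, Hsp90b1, Dnajc9 and Bag3, and the lower genes were Dnajc6, Dnajc12, Dnajc28, Hspa2 and Dnajc30. Leaving out sham 1, 2 or 3 left 0 higher members and 1 lower, Dnajc12, in each case, and the share of all genes called was then 3.31 to 3.73%. Without IR24h 2 there were 17 higher and 20 lower members, where 48.3% of all genes were called. Without IR24h 1 there were 5 higher and 5 lower members (12.7%, against 11.1% of all genes), and without IR24h 3 there were 2 higher and 3 lower. Calls of Bag3 and Dnajc17 were lost without IR24h 1 or 3, those of Dnajc9, Hspa1b, Dnajc28 and Hspa2 without IR24h 3, and that of Dnajc6 without IR24h 1. When libraries were scaled by size alone, 1 member was higher (Hspb1) and 2 lower (Dnajc12 and Dnajc30), and among all genes 398 were higher and 611 lower, in place of 1177 and 1037.

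**Figure D1:**
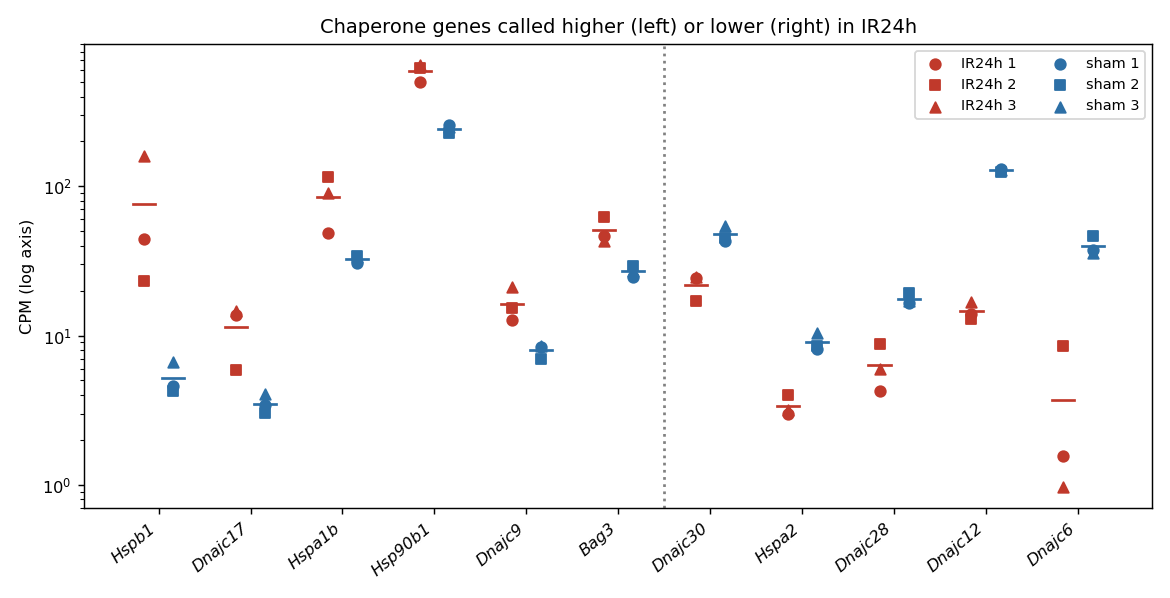
CPM on a log axis of the 11 called chaperone genes in each library, IR24h in red and sham in blue, with a short line at each group's mean and a marker shape for each replicate number. In all 11 genes the 3 IR24h libraries lie on one side of the 3 sham libraries, and Hspb1 and Dnajc6 have the widest spread among IR24h libraries.

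Groups without overlap were common in these data, at 32 members (41.0%) and 41.5% of all genes. All IR24h libraries lay above all sham libraries for 17 of the 78 members, 21.8%, and for 19.9% of all genes tested. They lay below for 15 members, 19.2%, and for 21.7% of all genes. The members' shares were thus close to the background in both directions.

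Small heat shock proteins hold unfolded clients until HSP70 can act on them, and Hspb1 (HSP25 in the mouse), which also binds actin filaments, had the largest change among all members tested. Hspb1 (ENSMUSG00000004951; chromosome 5, 135887919 to 135889563, plus strand, GRCm38) had 44.6, 23.4 and 160 CPM in IR24h libraries 1, 2 and 3 and 4.57, 4.23 and 6.69 CPM in sham. The groups did not overlap, and IR24h 3 was the highest library. Its mean was 76.1 ± 73.7 CPM in IR24h and 5.16 ± 1.33 CPM in sham (SD, n = 3 each), a log2 fold change of 3.88 ± 0.74 (SE, adjusted p = 0.0150). Without 1 sham library the adjusted p was 0.0668 to 0.0782. Of its 50-base stretches, 48.8% are shared with another gene, foremost the processed pseudogene Hsp25-ps1, so its reads may have been split or lost in counting.

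The other small members were low. Hspb8, the partner of BAG3 in clearing misfolded protein, had 5.68, 8.03 and 8.39 CPM in IR24h and 4.40, 2.93 and 3.94 CPM in sham, without overlap (log2 fold change 0.98 ± 0.33, adjusted p = 0.0800). Hspb6, a muscle-rich member, had 3.55, 17.1 and 15.1 CPM in IR24h and 4.45, 5.05 and 9.22 CPM in sham, so that IR24h 1 lay under every sham library (0.94 ± 0.58, adjusted p = 0.288). Hspb7, Hspb11 and Hspb2 had log2 fold changes of 0.67, 0.59 and 0.32 and were not called. The median over the 6 tested small members was 0.81 on the log2 scale, and 0.33 when libraries were scaled by size alone. Hspb2 has 30.2% of its exon bases opposite Cryab. Cryab, the alpha-B-crystallin gene, is a small heat shock protein outside the symbols used here. It had 193, 73.7 and 584 CPM in IR24h and 9.25, 22.4 and 26.9 CPM in sham (3.86 ± 0.81, adjusted p = 0.0204), with the same order of IR24h libraries as Hspb1. The summed CPM of 8 smooth muscle markers, a cell type rich in Cryab and Hspb6, was 359, 250 and 429 in IR24h and 127, 159 and 147 in sham, with 3 of 7 tested called higher. Of these 8, Myocd was at 0 in IR24h 1, IR24h 3 and sham 3, and the others were above 0 in each library. The part of smooth muscle in these values was not tested, and in bulk tissue more cells of a type and more RNA per cell cannot be told apart.

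HSP90 has a cytosolic pair, Hsp90aa1 (the inducible form) and Hsp90ab1 (the constitutive form), and an ER form, Hsp90b1 (GRP94). Hsp90b1 (ENSMUSG00000020048; chromosome 10, 86690209 to 86705509, minus strand) had 505, 623 and 650 CPM in IR24h and 256, 227 and 250 CPM in sham. No library of one group reached the other, and IR24h 1 was the lowest injured library. The means were 593 ± 77.5 CPM in IR24h and 244 ± 15.4 CPM in sham (SD, n = 3 each), with a log2 fold change of 1.28 ± 0.25 (SE, adjusted p = 0.0167). The call was lost without any 1 sham library (adjusted p = 0.0920 to 0.117) and under scaling by library size alone (0.286). Of its exon bases, 10.3% lie opposite 1810014B01Rik. Hsp90ab1 had 828, 1213 and 1499 CPM in IR24h and 791, 759 and 850 CPM in sham, and IR24h 1 lay within the sham range (0.56 ± 0.31, adjusted p = 0.243).

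Hsp90aa1 split the injured libraries. It had 129, 315 and 71.1 CPM in IR24h 1, 2 and 3 and 141, 140 and 134 CPM in sham. IR24h 2 was above and the other IR24h libraries were below every sham library (0.31 ± 0.50, adjusted p = 0.694; −0.48 without IR24h 2). Per length, as a ratio of FPKM within a library, Hsp90aa1 stood at 0.137, 0.229 and 0.0417 of Hsp90ab1 in IR24h and at 0.157, 0.163 and 0.139 in sham. Of the 50-base stretches of Hsp90aa1, 47.5% are shared with another gene, foremost Gm12346.

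Among the HSP70 proteins of the cytosol, Hspa1a and Hspa1b are the stress-inducible copies that lie close together on chromosome 17, and Hspa8 (HSC70) is the constitutive form. Hspa1b (ENSMUSG00000090877; 34956436 to 34959238, minus strand) had 48.6, 116 and 90.6 CPM in IR24h and 30.4, 34.2 and 33.6 CPM in sham. Every injured library was higher than every sham library, IR24h 2 the most. The means were 85.1 ± 34.1 CPM in IR24h and 32.7 ± 2.02 CPM in sham (SD, n = 3 each; log2 fold change 1.38 ± 0.34, SE, adjusted p = 0.0350, and 0.131 to 0.150 without 1 sham library). Hspa1a had 29.0, 29.0 and 36.8 CPM in IR24h and 14.7, 16.5 and 19.9 CPM in sham (0.89 ± 0.25, adjusted p = 0.0512). The copies share 60.3% of the 50-base stretches of Hspa1a and 62.3% of those of Hspa1b, so which of them the reads came from is uncertain. Hspa8 had 1553, 1207 and 2185 CPM in IR24h and 704, 800 and 965 CPM in sham, without overlap (1.0 ± 0.33, adjusted p = 0.0782; called by DESeq2 and without IR24h 2). The fit without IR24h 2 called 48.3% of all genes. In Hspa8, 38.6% of the stretches are shared, foremost with Gm15459.

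The other HSP70 members did not move together. Hspa2, best known for its part in sperm formation, had 2.98, 3.99 and 3.15 CPM in IR24h and 8.11, 8.51 and 10.5 CPM in sham, with no overlap. It was called lower (−1.41 ± 0.30, adjusted p = 0.0214; 0.0853 to 0.116 without 1 sham library). Hspa12a, a distant relative of HSP70, had 13.2, 19.9 and 12.3 CPM in IR24h and 34.1, 38.2 and 23.5 CPM in sham (−1.07 ± 0.31, adjusted p = 0.0556), and its implied gene length differed between the groups by −0.91 on the log2 scale. Hspa5 (BiP), the HSP70 of the ER and the partner of the called Hsp90b1, had 215, 506 and 336 CPM in IR24h and 246, 153 and 341 CPM in sham. The groups overlapped widely, and sham 2 was the lowest library (0.52 ± 0.42, adjusted p = 0.420). Hspa4, an HSP110 protein that reloads HSP70 with ATP, had 157, 242 and 165 CPM in IR24h and 152, 158 and 150 CPM in sham, with IR24h 1 among the sham libraries (0.30 ± 0.26, adjusted p = 0.460). Its relative Hspa4l had 18.9, 77.4 and 7.78 CPM in IR24h and 29.2, 28.8 and 25.0 CPM in sham, the widest split of the injured libraries in this family. Hspa12b, Hspa13, Hspa14 and Hspa1l had log2 fold changes between −0.05 and 0.53 and were not called. Over the 14 tested HSP70 and HSP110 genes, 1 was called higher and 1 lower, with a median log2 fold change of 0.26. That median was −0.10 under scaling by library size alone, where the median of all genes was −0.39 in place of 0.05.

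In mitochondria, Hspa9 (mortalin) pulls proteins through the import channel, and Hspd1 (HSP60) and Hspe1 (HSP10) form the folding cage. Hspa9 had 277, 597 and 336 CPM in IR24h and 586, 588 and 602 CPM in sham. IR24h 1 and 3 lay far below sham while IR24h 2 lay among the sham libraries (−0.55 ± 0.34, adjusted p = 0.291; adjusted p = 0.00632 without IR24h 2). Hspd1 had 238, 445 and 275 CPM in IR24h and 411, 390 and 424 CPM in sham, with IR24h 2 above and the other injured libraries below sham (−0.35 ± 0.31, adjusted p = 0.452; adjusted p = 0.0182 without IR24h 2). Hspe1, which is transcribed from the start region it shares with Hspd1, had 110, 84.4 and 130 CPM in IR24h and 89.2, 82.0 and 102 CPM in sham (0.25 ± 0.26, adjusted p = 0.528). Per length, Hspe1 stood at 0.739, 0.303 and 0.757 of Hspd1 in IR24h and at 0.347, 0.336 and 0.383 in sham. The ratio was thus above sham in IR24h 1 and 3 and below it in IR24h 2. Both genes share stretches with other loci, 39.7% of Hspd1 and 18.4% of Hspe1. The fit without IR24h 2, which gave the lower adjusted p of Hspa9 and Hspd1, called 48.3% of all genes.

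Of the other mitochondrial members read here, Dnajc30, Dnaja3, Dnajc15 and Dnajc19, 1 was called lower. Dnajc30, which is tied to complex I upkeep, had 24.1, 16.9 and 24.6 CPM in IR24h and 42.996, 45.3 and 54.6 CPM in sham and was called lower (−1.12 ± 0.26, adjusted p = 0.0282; 0.0970 to 0.134 without 1 sham library). Of its exon bases 26.2% lie opposite Bud23, which was not called (0.86 ± 0.36, adjusted p = 0.141). Dnaja3, the J-domain partner of Hspa9, had 48.3, 110 and 50.8 CPM in IR24h and 113, 117 and 118 CPM in sham, below in all injured libraries but only just in IR24h 2 (−0.74 ± 0.36, adjusted p = 0.192), with an implied length that differed by −0.10. Dnajc15 and Dnajc19, of the import motor, had log2 fold changes of 0.60 and 0.11, with IR24h 1 and 3 above and IR24h 2 below all sham libraries.

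CCT is a ring of 8 kinds of subunit that folds actin and tubulin, and 7 of its genes (Cct2, Cct3, Cct4, Cct5, Cct7, Cct8 and Tcp1) were tested along with Cct6b, a low paralog rich in testis. None was called by edgeR with all libraries or by DESeq2, and 0 of the 8 had an unadjusted p under 0.05 in that edgeR fit. Log2 fold changes of the 7 ran from 0.09 for Tcp1 to 0.56 for Cct7, with adjusted p of 0.170 to 0.833. Cct2 had 114, 174 and 193 CPM in IR24h and 125, 125 and 129 CPM in sham. Cct3 had 73.9, 135 and 120 CPM in IR24h and 91.3, 85.4 and 106 CPM in sham. Cct5 had 82.0, 173 and 117 CPM in IR24h and 105, 110 and 122 CPM in sham. In these subunits IR24h 1 lay below every sham library and IR24h 2 above. Cct4 had 90.6, 121 and 140 CPM in IR24h and 74.2, 90.8 and 95.5 CPM in sham. Cct7 had 124, 133 and 177 CPM in IR24h and 92.1, 89.6 and 113 CPM in sham, without overlap, as did Cct8 with 126, 160 and 160 CPM in IR24h and 112, 113 and 113 CPM in sham. Tcp1 had 138, 125 and 177 CPM in IR24h and 125, 134 and 156 CPM in sham, and the groups overlapped. Its implied length differed by −0.16, with 11.4% of its exon bases opposite Acat3 (itself called higher, 1.95 ± 0.28, adjusted p = 0.00590). Cct6b stayed under 1.5 CPM in each library, and no gene was listed under the symbol Cct6a. Summed over all 9 matched CCT genes, the level was 749, 1021 and 1086 CPM in IR24h and 726, 749 and 836 CPM in sham. Under scaling by library size alone Cct2, Cct3, Cct5, Cct8 and Tcp1 had negative values, and the family median was −0.09 in place of 0.28, still above the median of all genes.

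**Figure D2:**
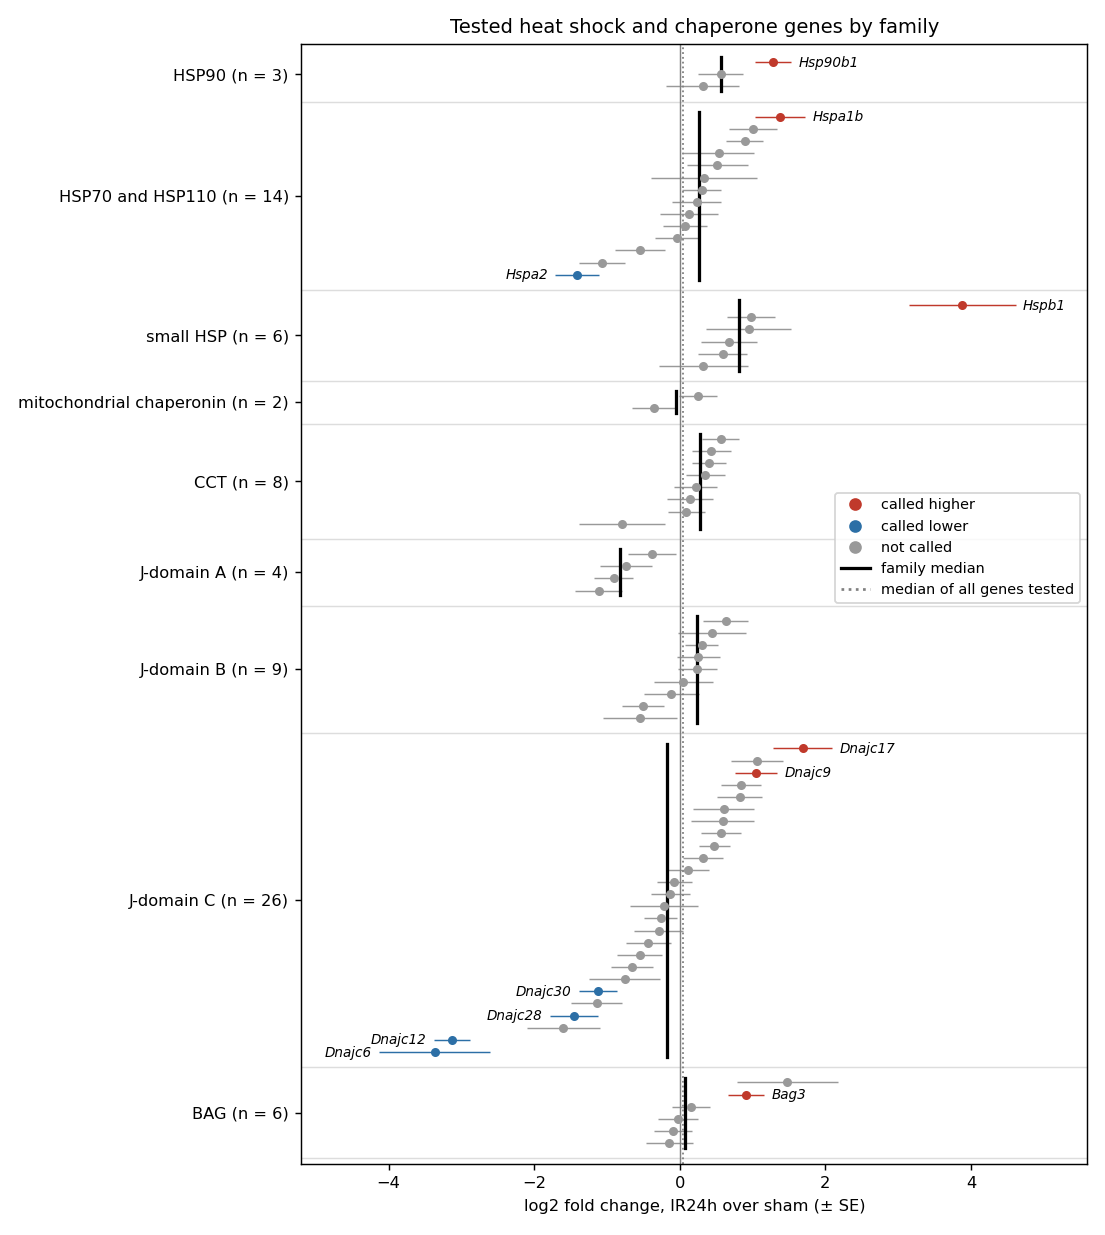
Log2 fold change of IR24h over sham with its SE for each of the 78 tested members, by family. Red and blue points are genes called higher and lower, grey points were not called, black bars mark family medians and the dotted line the median of all genes tested (0.05). Family medians run from −0.82 for J-domain A to 0.81 for small heat shock proteins.

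J-domain proteins choose the client and the moment at which HSP70 acts. Of 45 matched, 39 were tested, with 2 called higher, 4 lower and 33 not called. The shares of all genes tested were 8.65% higher and 7.62% lower. The A class, general partners of cytosolic and mitochondrial HSP70, had a median log2 fold change of −0.82, which was −1.16 to −0.74 under the other scalings tried. None of the 4 was called by edgeR with all libraries. DESeq2 called Dnaja1 and Dnaja4 lower, and limma-voom called Dnaja1 lower. The edgeR fit without IR24h 2 called all 4 lower, and in that fit 3382 of 13817 genes were called lower. Dnaja1 had 39.5, 79.5 and 46.1 CPM in IR24h and 112, 115 and 132 CPM in sham (−1.11 ± 0.32, adjusted p = 0.0529), and 11.9% of its stretches are shared with Gm15542. Dnaja4 had 10.9, 16.9 and 11.8 CPM in IR24h and 27.2, 22.7 and 24.9 CPM in sham (−0.91 ± 0.27, adjusted p = 0.0589), with 44.1% of its exon bases opposite Wdr61. In both genes all injured libraries were lower than all sham libraries, IR24h 2 the least. Dnaja2 had 81.1, 170 and 89.1 CPM in IR24h and 148, 149 and 146 CPM in sham, so that IR24h 2 lay above sham.

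The stress-induced B-class gene Dnajb1 (HSP40) had 20.03, 31.4 and 36.8 CPM in IR24h and 42.8, 41.7 and 41.2 CPM in sham, without overlap (−0.51 ± 0.28, adjusted p = 0.245). Set against Hspa8 within a library, per length, Dnajb1 stood at 0.0372, 0.0751 and 0.0486 in IR24h and at 0.175, 0.150 and 0.123 in sham. Dnaja1 stood at 0.0170, 0.0441 and 0.0141 of Hspa8 in IR24h and at 0.106, 0.0961 and 0.0912 in sham. These ratios of J-domain partner to HSC70 were lower in every IR24h library than in every sham library, and the pairs were picked after the values were seen. The ER member Dnajb9 had 23.7, 67.6 and 30.6 CPM in IR24h and 42.8, 35.6 and 40.02 CPM in sham (0.05 ± 0.40, adjusted p = 0.946), and Dnajb11, a BiP partner, 81.7, 91.4 and 98.0 CPM in IR24h and 74.0, 67.1 and 78.9 CPM in sham (0.30 ± 0.22, adjusted p = 0.378). Of 9 tested B-class genes, 0 were called by edgeR with all libraries and 0 by DESeq2. In that edgeR fit 0 had an unadjusted p under 0.05. Without IR24h 2, edgeR called Dnajb4 lower, where 48.3% of all genes were called. Dnajb2, Dnajb4, Dnajb5, Dnajb6, Dnajb12 and Dnajb14 had log2 fold changes between −0.55 and 0.63, and in each the groups overlapped.

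The C class, whose members carry the J domain on otherwise unlike proteins, held both extremes of the J-domain family. Dnajc12, which supports the enzymes that hydroxylate aromatic amino acids, had 13.9, 13.0 and 16.8 CPM in IR24h and 130, 125 and 129 CPM in sham. The libraries of each group lay close together and the groups far apart. The means were 14.6 ± 1.98 CPM in IR24h and 128 ± 2.98 CPM in sham (SD, n = 3 each), a log2 fold change of −3.14 ± 0.25 (SE, adjusted p = 8.73e-04), and the call held under each of 15 alternatives (adjusted p of at most 0.0122). Dnajc12 (ENSMUSG00000036764) lies on chromosome 10 from 63382443 to 63410576, plus strand. Dnajc6 (auxilin), which strips clathrin from vesicles with HSC70, had 1.56, 8.54 and 0.961 CPM in IR24h and 37.3, 46.2 and 35.6 CPM in sham (−3.37 ± 0.76, adjusted p = 0.0259). The counts behind the IR24h values were 11, 167 and 11, and the log2 fold change was −5.02 without IR24h 2. The call was lost without any 1 sham library (adjusted p = 0.0780 to 0.0892) or IR24h 1 (0.0742), and the implied length of Dnajc6 differed by −0.02. Dnajc28 had 4.26, 8.84 and 5.94 CPM in IR24h and 16.5, 19.3 and 17.1 CPM in sham (−1.46 ± 0.33, adjusted p = 0.0255; 0.0907 to 0.117 without 1 sham library), with an implied length that differed by −0.28.

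On the other side, Dnajc9, a chaperone of histones H3 and H4, had 12.8, 15.3 and 21.1 CPM in IR24h and 8.39, 6.97 and 8.47 CPM in sham (1.05 ± 0.29, adjusted p = 0.0484). Dnajc17, a nuclear member linked to splicing, had 13.6, 5.88 and 14.5 CPM in IR24h and 3.43, 3.03 and 4.05 CPM in sham (1.69 ± 0.41, adjusted p = 0.0317). Both lay above sham in each injured library, and both calls were lost without any 1 sham library (adjusted p = 0.101 to 0.206). Dnajc17 changed by 0.76 with IR24h 2 as the only injured library and was then not called, and 13.9% of its stretches are shared with Gm6257. Dnajc13, an endosome protein, had 35.8, 123 and 41.3 CPM in IR24h and 228, 222 and 157 CPM in sham (−1.60 ± 0.50, adjusted p = 0.0675). Dnajc22 had 20.9, 42.99 and 19.1 CPM in IR24h and 58.9, 60.9 and 64.0 CPM in sham (−1.14 ± 0.35, adjusted p = 0.0656). Neither overlapped sham, and IR24h 2 was nearest to sham in both. Dnajc7, which hands clients between HSP70 and HSP90, had 185, 72.9 and 118 CPM in IR24h and 58.8, 61.8 and 58.9 CPM in sham (1.06 ± 0.36, adjusted p = 0.0794), but the length behind its values was shorter in IR24h by 1.44 on the log2 scale, the largest such gap among members. Dnajc3, an inhibitor of eIF2alpha kinases in the ER, had 82.96, 171 and 88.7 CPM in IR24h and 147, 146 and 127 CPM in sham (−0.29 ± 0.33, adjusted p = 0.571). Dnajc8, a splicing-associated member, had 35.9, 57.8 and 57.2 CPM in IR24h and 25.2, 29.3 and 29.6 CPM in sham (0.84 ± 0.27, adjusted p = 0.0732). Dnajc2, a ribosome-bound member, had 46.4, 48.8 and 45.97 CPM in IR24h and 33.5, 31.9 and 36.1 CPM in sham (0.48 ± 0.22, adjusted p = 0.167). Neither overlapped sham. Of the other uncalled C-class genes, Dnajc5 and Dnajc11 lay above sham in all injured libraries, with log2 fold changes of 0.82 and 0.57. Dnajc10, Dnajc16 and Dnajc25 lay below, with −0.27, −0.66 and −0.55. Dnajc14, Dnajc18, Dnajc21, Dnajc24 and Dnajc27 overlapped and ran from −0.76 to 0.32.

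BAG proteins make HSP70 release its client. Bag3, which steers clients to autophagy, had 46.4, 62.3 and 43.3 CPM in IR24h and 24.7, 29.0 and 27.1 CPM in sham. No IR24h library reached down to sham, and the means were 50.7 ± 10.2 CPM in IR24h and 26.9 ± 2.19 CPM in sham (SD, n = 3 each). Bag3 thus had a log2 fold change of 0.91 ± 0.25 (SE, adjusted p = 0.0468), and its adjusted p was 0.167 to 0.206 once 1 sham library was left out. Bag2, a brake on the ubiquitin ligase CHIP, had 8.66, 70.03 and 18.0 CPM in IR24h and 13.1, 10.3 and 11.5 CPM in sham, high in IR24h 2 (1.47 ± 0.69, adjusted p = 0.178). Bag1, Bag4, Bag5 and Bag6 had log2 fold changes between −0.14 and 0.15 and adjusted p of 0.703 to 0.962.

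IR24h 2 differed from the other injured libraries in chaperones as in other genes. For 11 members it lay above all sham libraries while IR24h 1 and 3 lay below all of them: Hsp90aa1, Hspa4l, Hsph1, Hspa14, Hspd1, Dnaja2, Dnajb4, Dnajb9, Dnajc1, Dnajc3 and Bag4. That is 14.1% of tested members, against 8.51% of all genes. The reverse pattern held for 5 members (Hspa12b, Dnajb6, Dnajc4, Dnajc15 and Dnajc19), 6.41% against 8.06% of all genes. Hsph1, for instance, had 77.8, 165 and 81.1 CPM in IR24h and 91.5, 93.8 and 91.2 CPM in sham. A mean over the 3 injured libraries describes none of them for such genes. Some fat and striated muscle markers also set IR24h 2 apart. Adipoq had 0, 16 and 0.262 CPM in IR24h 1, 2 and 3, Lep had 0, 22.2 and 0 CPM, Plin1 had 0, 12.6 and 0 CPM and Myh4 had 0, 10.5 and 0 CPM, and these genes were at 0 in every sham library. The summed CPM of 9 adipocyte markers was 88.1, 195 and 87.1 in IR24h and 15.8, 18.9 and 25.2 in sham, with 2 of 2 tested called higher and none at 0 in all libraries. The sum of 11 striated muscle markers was 9.38, 22.2 and 5.94 CPM in IR24h and 17.2, 21.8 and 20.4 CPM in sham, with 1 of 4 tested called higher, 1 lower and 1 of the 11 at 0 in all libraries. Fabp4, Mylpf, Myh6, Tnnt2 and Pvalb, also on these lists, were not highest in IR24h 2 among the IR24h libraries. Pvalb had 1.85, 0.562 and 2.01 CPM in IR24h and 15.1, 19.3 and 18.7 CPM in sham, most of the sham muscle sum. The part of these markers in the values of IR24h 2 was not tested. With IR24h 2 as the only injured library, 24 of 81 members were called higher and 7 lower, and of 14288 genes 2690 were called higher and 2749 lower (38.1%). The mitochondrial share of counts also differed, at 68.9, 26.2 and 49.2% in IR24h 1, 2 and 3, and its part in these values was not tested. With genes of the mitochondrial genome left out, 7 members were called higher and 5 lower (15.2%), against 16.6% of all genes.

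**Figure D3:**
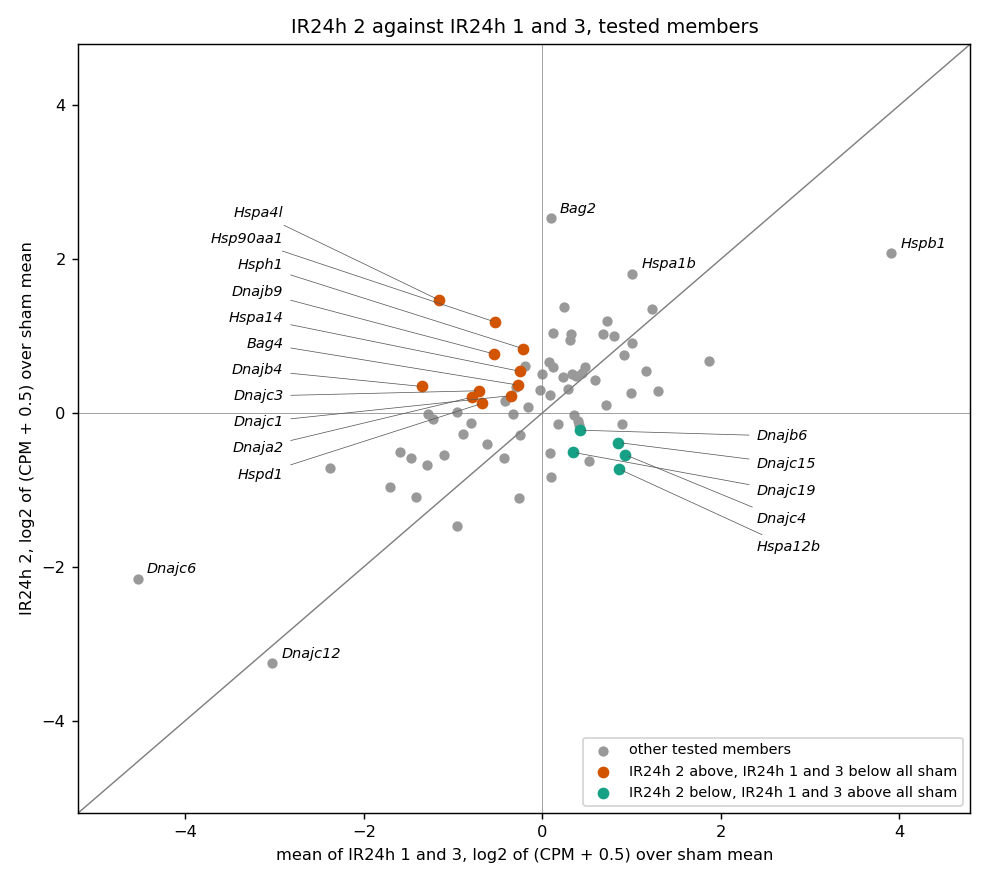
Each point is 1 of the 78 tested members. The x axis is the mean over IR24h 1 and 3, and the y axis IR24h 2, of the log2 of CPM plus 0.5 over the sham mean; orange and green mark the 11 and 5 members whose IR24h libraries lie on opposite sides of all sham libraries, and the diagonal marks equal values. Hspb1 and Dnajc6 lie nearer to sham in IR24h 2, while Dnajc12 lies near the diagonal.

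**Figure D4:**
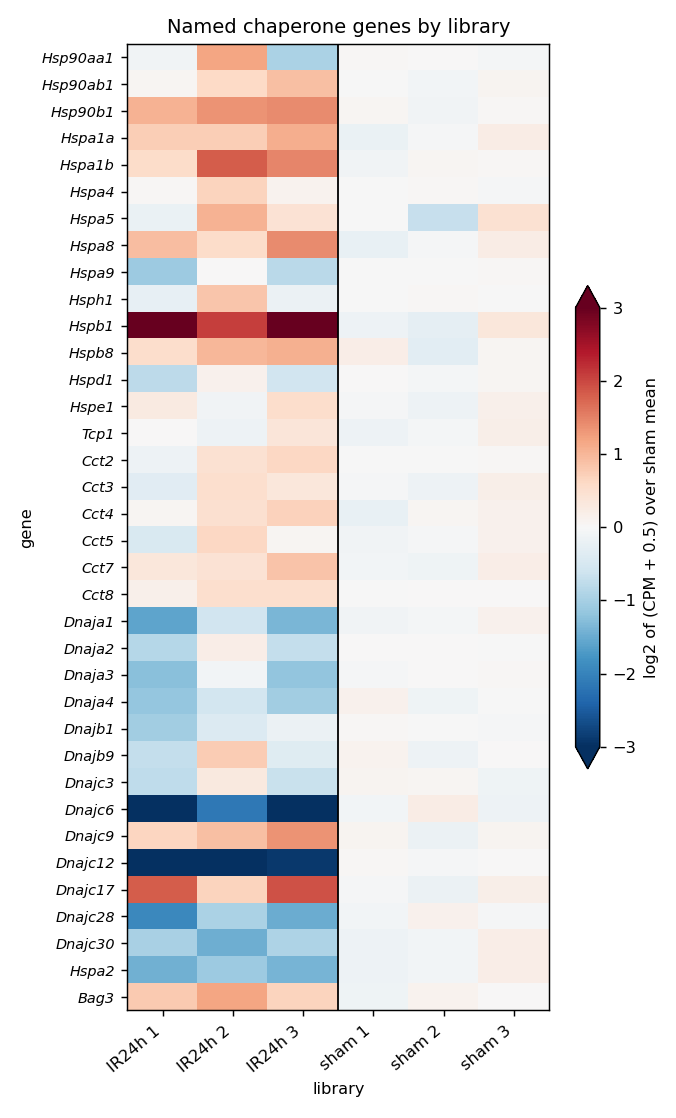
Log2 of CPM plus 0.5 over the sham mean for named members in each of the 6 libraries, red above and blue below the sham mean, with colours ending at 3 on either side. Hsp90b1, Hspa1b, Hspb1, Dnajc9, Dnajc17 and Bag3 are red in the 3 IR24h columns, and Dnajc6, Dnajc12, Dnajc28, Dnajc30 and Hspa2 are blue.

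A few genes held much of the chaperone signal. Hspa8 and Hsp90ab1 alone gave 34.1, 27.0 and 40.2% of the counts of all members in IR24h and 22.3, 23.3 and 24.9% in sham. All members together took 1.23, 1.49 and 1.55% of the counts outside the mitochondrial genome in IR24h and 0.945, 0.951 and 0.985% in sham. The summed CPM of all members was 6981, 8962 and 9159 in IR24h and 6721, 6695 and 7289 in sham. On that scale IR24h 1 lay within the sham range, so the difference depends on the denominator. Per length, by the authors' mean FPKM within a group, the first in IR24h were Hsp90ab1 at 186 ± 94.7 and Hspa8 at 152 ± 56.2 FPKM. Hspd1 at 109 ± 77.5 and Hsp90b1 at 98.6 ± 45.2 FPKM came next. Within each IR24h library Hsp90ab1 was above Hspd1 and Hsp90b1, and Hspa8 was above Hsp90b1. The order of the other pairs among these 4 changed between libraries. In sham the first 4 were Hspd1 at 162 ± 4.82, Hsp90ab1 at 153 ± 4.31, Hspa9 at 119 ± 2.59 and Hspa8 at 98.1 ± 12.2 FPKM (SD, n = 3). The libraries of these sham genes did not overlap between neighbours in that order. The length behind the Hspa8 values was 9237 bases, against 4301 exon bases in GENCODE M21, so the order rests on the authors' lengths.

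The 9 members that did not pass the filter were Hspb3, Dnajb7, Dnajb8, Dnajc5b and Dnajc5g, with 0 counts in all 6 libraries, and Hspb9, Dnajb3, Dnajb13 and Cct8l1. Hspb9, a testis gene, had 2, 0 and 0 counts in IR24h and 7, 14 and 14 in sham. Dnajb3 had 4, 10 and 8 counts in IR24h and 5, 5 and 14 in sham, and Dnajb13 had 6, 11 and 0 in IR24h and 3, 2 and 2 in sham. Cct8l1 had at most 4 counts in a library.

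Genes that work with these chaperones were read from 7 lists by role, with 66 of 68 listed genes tested. Of these, 8 were called higher and 2 lower, with a median log2 fold change of 0.19. Among all genes tested, 8.65% were called higher and 7.62% lower, and the counts of each list are to be read beside these shares. HSF1, the regulator of the heat shock response, had 32.2, 21.5 and 30.8 CPM of Hsf1 in IR24h and 14.6, 21.5 and 18.0 CPM in sham (0.64 ± 0.28, adjusted p = 0.154), and its implied length differed by −0.27. Of 5 tested regulators 0 were called by edgeR with all libraries, and 1, Hsf4, had an unadjusted p under 0.05. Among 18 HSP90 cochaperones, 3 were higher. Stip1 (HOP), which links HSP70 to HSP90, had 116, 142 and 190 CPM in IR24h and 60.6, 70.6 and 73.2 CPM in sham (1.14 ± 0.27, adjusted p = 0.0305). Ppid, a prolyl isomerase, had 52.0, 46.2 and 41.8 CPM in IR24h and 22.8, 20.8 and 23.9 CPM in sham (1.05 ± 0.23, adjusted p = 0.0231). The implied length of Stip1 differed by 0.04.

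Of 13 genes for folding in the ER, 3 were higher and 0 lower (median 0.52). Serpinh1 (HSP47), the collagen chaperone, had 247, 141 and 90.7 CPM in IR24h and 57.7, 38.9 and 46.5 CPM in sham (1.74 ± 0.40, adjusted p = 0.0271). Manf had 60.7, 69.7 and 88.2 CPM in IR24h and 27.1, 24.4 and 38.8 CPM in sham (1.28 ± 0.29, adjusted p = 0.0256), and Creld2 changed by 0.84 ± 0.23 (adjusted p = 0.0486). Both are targets of the ER stress response, as is Hsp90b1, while Hspa5, Dnajb9, Dnajc3 and the HSP70 cofactor Hyou1 (0.003) were not called. The ER members were Hsp90b1, Hspa5, Dnajb9, Dnajb11, Dnajc1, Dnajc3 and Dnajc10. Over these 7 the median log2 fold change was 0.046, against 0.049 over all genes tested, with 1 called. Of 9 mitochondrial quality control genes, 2 were lower and 0 higher (median −0.53). Trap1, the HSP90 of mitochondria, had 102, 175 and 132 CPM in IR24h and 267, 259 and 310 CPM in sham (−1.03 ± 0.28, adjusted p = 0.0472), and Spg7, a protease of the inner membrane, changed by −1.17 ± 0.27 (adjusted p = 0.0287). Of 11 genes of prefoldin and CCT cofactors, 1 was higher, Pfdn2 (1.07 ± 0.30, adjusted p = 0.0477). Of 8 HSP70 cofactors 0 were called by edgeR with all libraries, with 2 at an unadjusted p under 0.05. Without 1 sham library, 1 companion gene was called higher and 0 lower in each case.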

How the data were processed

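RNA was measured by RNA-seq in 3 IR24h and 3 sham libraries of mouse renal cortex. Per the labels' protocols, an AMBION kit gave total RNA, and libraries were made after TruSeq protocols. CASAVA 1.8 and TopHat2 2.0.6 were run and mm10 and GRCh38 are named, per the submitters' processing notes. Counter, annotation and strandedness: not given in the sources used here. As the file headers show, the authors deposited raw counts per gene and FPKM. Of 22040 genes, 83 had no sham value and were left out; 26 symbols turned into numbers were restored by identifier. The gene length behind FPKM, from count over FPKM, was called different above 0.01 on the log2 scale.

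Counts were tested with edgeR 4.0.16 in R 4.3.3 (expression filter, TMM scaling, quasi-likelihood test, 2-sided, Benjamini-Hochberg adjustment over 13609 genes, call at 0.05). SEs derive from the F statistic. CPM are relative to TMM-scaled library sizes, and precision rests on totals of 12877237 to 17061844 counts; values are mean ± SD over 3 libraries. Alternatives were DESeq2 1.42.0, limma 3.58.1 and those in the closing section. Overlaps, coordinates and shared 50-base stretches came from GENCODE M21 (GRCm38, the assembly of mm10), and promoters from RefSeq GRCm38.p6. Members and lists were chosen with earlier results of these data known. Values are given in full for called members, for a set of well-known members fixed by symbol and for others chosen after their values were seen. Figures used Python 3.11.15 and matplotlib 3.10.9. A companion gene is counted in its list and not reported here by name.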

Additional observations from a re-analysis of the deposited data

How the results depend on the processing

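Scaled by library size alone, 1 member was higher and 2 lower, the median log2 fold change of members was −0.23 (all genes −0.39), and 2 companion genes were higher and 0 lower. With the replicate number as a block, 3 members were higher (4 lower), and 4 companions higher and 0 lower; same-numbered libraries correlated at −0.11, 0.12 and 0.23 in their deviations, so the numbers do not pair them, and not every library correlated best with its own number. With IR24h 2 as the only injured library, 24 members were higher, and 14 companions higher and 8 lower, the lone library being assumed to vary like the sham group. DESeq2 called 11 members higher and 10 lower, and 13 companions higher and 5 lower. The called members were 24.1% of 87 and the called genes 17.0% of 21957, both without the expression filter. Both totals take in genes without any count, so these shares do not compare with each other. Without genes of the mitochondrial genome, or without the filter on low counts, 1 companion was lower. Leaving out members of differing implied length left 3 lower members, and leaving out members that share stretches, chosen after seeing the data, left 3 higher. Leaving out 1 library gave 0 to 17 higher and 1 to 20 lower members, and 1 to 22 higher and 0 to 14 lower companions. DESeq2's size factors, upper-quartile scaling and limma-voom kept each of these counts within 1.5 times. Dnajc12 was called under all 15 alternatives, and Hspb1 under all but the 3 that leave out a sham library.

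Log2 fold changes that were small and not called changed sign. Under scaling by library size alone they were −0.038 for Cct2, −0.14 for Cct3, −0.18 for Cct5, −0.014 for Cct8, −0.22 for Dnajb9, −0.073 for Hspa4, −0.25 for Hspe1, −0.08 for Hsph1 and −0.38 for Tcp1. With IR24h 2 alone they were 0.30 for Dnajc3, 0.024 for Hspa9, 0.14 for Hspd1, −0.10 for Hspe1 and −0.14 for Tcp1. Dnajb9 stood at −0.11 under the block and at −0.068 with limma-voom. Leaving out 1 library gave −0.18 to 0.36 for Cct5, −0.54 to 0.31 for Dnajb9, −0.48 to 0.68 for Hsp90aa1, −0.22 to 0.41 for Hsph1 and −0.073 to 0.21 for Tcp1. Why these moved was not tested. IR24h 1 had the fewest counts outside the mitochondrial genome, 4008001, so its low genes are the least precise.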
